A study of Rattus norvegicus with 9 samples.

Results

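The neutrophil granule, S100 and stefin genes described here are S100a8, S100a9, Camp, RatNP-3b, Lcn2, Mpo, Stfa2l2, Stfa3 and Saa3, 9 genes of myeloid and acute phase defence followed in freshly isolated rat lung fibroblasts on postnatal days 2, 7 and 21. A gene was taken as measured where the array had a probe set whose only annotated symbol was that gene, and the brightest such probe set, by mean log2 intensity over the 9 arrays, represented it. This gave 8 of the 9 genes, among 14217 genes represented in all. No probe set had Mpo, myeloperoxidase, as its only symbol in the annotation used, so Mpo is not analysed here. The set was put together knowing that most of these genes were lower on day 7 than on day 2. That comparison is therefore a description and carries no test of these genes below.

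The samples were lung fibroblasts from rat pups, with no strain, treatment or genetic change named in the labels. Day 2 lies before the alveolar walls (septa) form, day 7 falls within their formation and day 21 after it has ended. Each day had 3 arrays, each from the pooled cells of 1 litter, 5 pups on day 2 and 4 pups on days 7 and 21. Fibroblasts were selected only by their brief adherence to plastic after the lung was digested with enzymes, a step that other adherent cells can pass. The replicates of a day are separate litters, and the spread that enters each p-value is that between litters.

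Neutrophils store antimicrobial proteins in granules that are filled in sequence as the cells mature in the marrow. Primary granules hold myeloperoxidase and defensins, and secondary granules hold cathelicidin and lipocalin 2, while S100a8 and S100a9 pair as calprotectin and make up much of the cytosolic protein. Rodent stefin A proteins are cysteine protease inhibitors encoded by a cluster of near copies and are abundant in neutrophils, whereas Saa3 is a serum amyloid A protein made in tissues, by macrophages, epithelium and fibroblasts as well, during inflammation.

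Sequences upstream of these genes are shown so that they can be compared base by base. RefSeq sequences of the rat assembly GRCr8 were found for 8 of the 9 genes, as the 250 bases before the annotated start. S100a8 had none, and Mpo, which was not measured on the arrays, is among the 8. The 5 sequences with a match to TTGCNNAA are given with that match in capitals. It is a form of the site bound by C/EBP factors, which control myeloid and acute phase genes. The sequence of Camp, the only one of the genes called higher on day 21 than on day 7, follows and has no match. S100a9, which was not called higher, and Mpo also have no match and are not printed. A link between matches and changes was not tested. All are 5′ to 3′ on the strand of the gene.
RatNP-3b, chr16:77248978-77249227, minus strand: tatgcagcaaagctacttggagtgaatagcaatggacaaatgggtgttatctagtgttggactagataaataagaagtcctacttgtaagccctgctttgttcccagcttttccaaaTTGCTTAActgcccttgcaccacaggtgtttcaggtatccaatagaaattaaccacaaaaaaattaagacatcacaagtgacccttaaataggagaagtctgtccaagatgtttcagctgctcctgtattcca
Lcn2, chr3:36081781-36082030, minus strand: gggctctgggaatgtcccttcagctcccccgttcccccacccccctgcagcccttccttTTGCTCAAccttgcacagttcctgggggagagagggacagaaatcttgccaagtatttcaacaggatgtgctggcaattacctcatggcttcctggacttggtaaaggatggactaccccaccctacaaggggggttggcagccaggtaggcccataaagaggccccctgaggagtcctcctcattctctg
Stfa2l2, chr11:78003240-78003489, plus strand: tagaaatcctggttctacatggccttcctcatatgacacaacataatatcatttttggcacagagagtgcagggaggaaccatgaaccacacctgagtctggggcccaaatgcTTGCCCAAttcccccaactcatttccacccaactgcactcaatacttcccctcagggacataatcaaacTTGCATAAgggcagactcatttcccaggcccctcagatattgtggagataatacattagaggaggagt
Stfa3, chr11:77858820-77859069, plus strand: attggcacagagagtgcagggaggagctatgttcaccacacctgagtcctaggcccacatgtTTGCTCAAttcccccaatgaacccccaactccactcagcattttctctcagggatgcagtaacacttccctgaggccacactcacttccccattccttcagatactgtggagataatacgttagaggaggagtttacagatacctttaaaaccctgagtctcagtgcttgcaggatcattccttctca
Saa3, chr1:106358431-106358680, minus strand: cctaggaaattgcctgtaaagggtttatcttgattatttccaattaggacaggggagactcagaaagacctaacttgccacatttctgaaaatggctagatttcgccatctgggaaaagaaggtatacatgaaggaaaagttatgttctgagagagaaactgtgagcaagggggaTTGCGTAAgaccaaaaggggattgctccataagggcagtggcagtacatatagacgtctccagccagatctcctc
Camp, chr8:118721999-118722248, minus strand: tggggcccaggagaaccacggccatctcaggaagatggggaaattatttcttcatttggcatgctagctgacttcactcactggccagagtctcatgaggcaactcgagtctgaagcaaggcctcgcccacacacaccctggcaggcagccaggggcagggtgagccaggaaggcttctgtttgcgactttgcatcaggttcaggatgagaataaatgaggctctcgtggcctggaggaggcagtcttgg

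On either strand, TTGCNNAA was present in 5 of the 8 promoters searched and in 9.2% of 27457 RefSeq promoters of the same length. It occurred 2 times upstream of Stfa2l2, at -137 to -130 and -68 to -61 from the start, and 1 time upstream of Saa3, at -75 to -68. A form of the NF-kB site (GGGA, then any 4 bases, then CC) was present in 2 of 8 (Lcn2 and Stfa2l2) and in 16.8% of all, and the PU.1 core GAGGAA in 3 of 8 (S100a9, Mpo and Stfa2l2) and in 23.2% of all. In Stfa2l2 1 of the PU.1 matches lies inside the NF-kB match, and in Lcn2 the NF-kB matches of the 2 strands overlap. TATAAA was present upstream of S100a9 alone, against 13.1% of all, and the AP-1 site TGANTCA in 0 of 8, against 6.36%. These counts describe letters in a short window and were not tested. The Stfa2l2 and Stfa3 sequences are near copies of each other, with 154 of 193 aligned bases identical (79.8%, unaligned ends left out), whereas none of the 27 other pairs shared more than 57 identical bases. In the reference annotation Stfa3 and Stfa2l2 lie on chromosome 11 with 3 coding genes between them, and S100a8 and S100a9 are direct neighbours on chromosome 2.

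All 8 measured genes were at their highest on day 2 and all 8 were lower on day 7, with no overlap between the arrays of these days, as in 11.9% of all genes. On day 21, 7 of the 8 were still below day 2, without overlap (24.5% of all genes), and 1, Camp, had risen from day 7. Of all 14217 genes, 4.41% were called lower on day 7 than on day 2, 13.7% higher on day 21 than on day 7 and 15.3% lower on day 21 than on day 2, at a limma adjusted p under 0.05. The median log2 change of the 8 genes was -2.87 from day 2 to day 7, 0.79 from day 7 to day 21 and -2.44 from day 2 to day 21, beside medians over all genes of 0.073, -0.015 and 0.016. The first of these comparisons chose the genes, and each of the others shares 3 of its arrays with it, so a fall from day 2 and a rise from day 7 are partly fixed by that choice. In RNA from mixed cells, fewer cells of a type and less RNA per cell cannot be told apart.

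**Figure D1:**
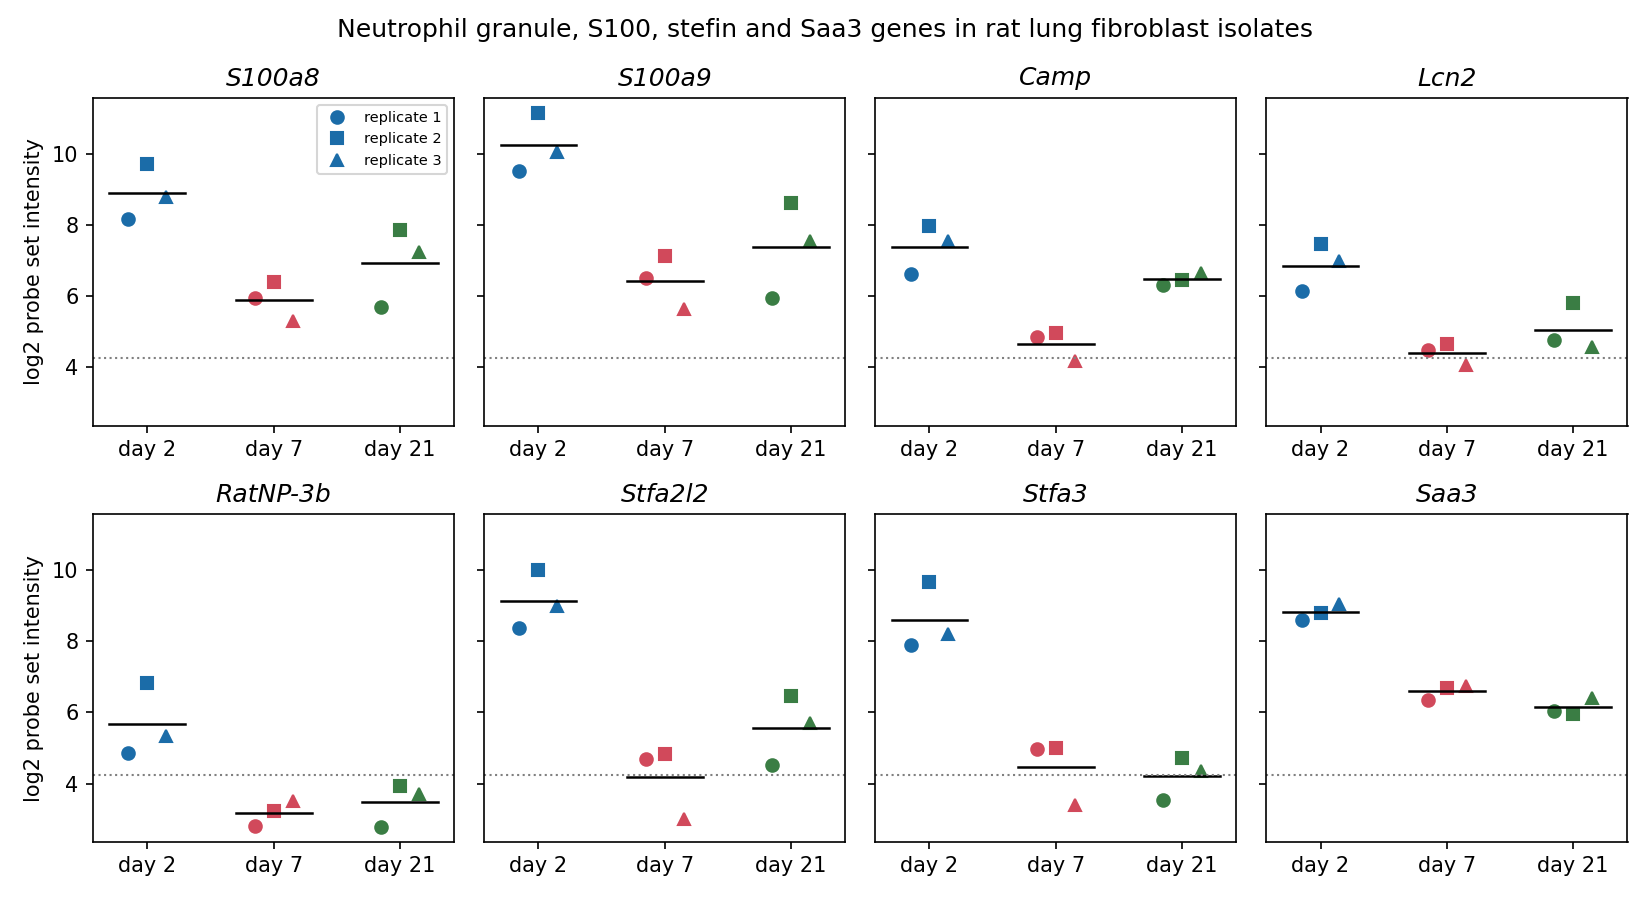
Log2 probe set intensity (vertical axis) of the 8 measured genes on each of the 9 arrays, by postnatal day. Symbols mark replicates 1 to 3 of a day, horizontal bars are day means, and the dotted line is the low end of the array's values, the 25th percentile at log2 4.25. All day 2 points lie above all day 7 points, and on day 21 the 3 Camp points lie close together between 6.32 and 6.66 while those of S100a9 spread from 5.94 to 8.64.

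S100a8 and S100a9 encode the subunits of calprotectin, a calcium- and zinc-binding protein that restricts metals to microbes and signals through Toll-like receptor 4. S100a9 had log2 intensities of 9.51, 11.16 and 10.06 in the 3 replicates of day 2, 6.53, 7.12 and 5.64 on day 7, and 5.94, 8.64 and 7.55 on day 21. Its partner S100a8 had 8.18, 9.72 and 8.79 on day 2, 5.94, 6.39 and 5.31 on day 7, and 5.69, 7.86 and 7.25 on day 21. In both genes replicate 2 was the highest array of every day, and replicate 1 of day 21 lay within the day 7 values while the other two arrays of day 21 lay above all of them. The day 7 means were lower than the day 2 means by 14.1-fold for S100a9 (log2 difference -3.82 ± 0.61, SE) and 8.08-fold for S100a8 (-3.01 ± 0.51).

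Neither S100 gene passed the test between days 7 and 21. The log2 difference was 0.95 ± 0.61 for S100a9 (limma adjusted p = 0.286) and 1.05 ± 0.51 for S100a8 (adjusted p = 0.151), with 2 of 3 day 21 arrays above all day 7 arrays in each. Without replicate 1 of day 21 both passed, at 1.67 (adjusted p = 0.0349) and 1.68 (adjusted p = 0.0126), and S100a8 also passed with the arrays centred on their medians (adjusted p = 0.0496) and with the litter number as a replicate block (adjusted p = 0.0364). Against day 2, S100a9 was 7.30-fold lower on day 21 (-2.87 ± 0.61, adjusted p = 0.00684) and S100a8 3.89-fold lower (-1.96 ± 0.51, adjusted p = 0.0195), in every array of each. The S100a8 call was lost without replicate 2 of day 2 (-1.55, adjusted p = 0.0839), without replicate 1 of day 21 (-1.34, adjusted p = 0.0548) and with limma's trended, robust variance (adjusted p = 0.0582).

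The S100 pair can be compared within each array. The S100a9 log2 value exceeded that of S100a8 by 1.28 to 1.44 on day 2, 0.33 to 0.74 on day 7 and 0.25 to 0.78 on day 21. Levels of different probe sets cannot be ranked, so only shifts of this difference can be read. Between days 7 and 21 it moved by -0.11 (two-sided exact permutation test over arrays, p = 0.7; adjusted p = 0.7 over 6 tests of 3 pairs chosen with these values known). Between days 2 and 21 it moved by -0.91, with no overlap but no pass (exact permutation p = 0.1, the smallest that 3 against 3 arrays can give; adjusted p = 0.12).

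Camp encodes cathelicidin, the precursor of a membrane-breaking antimicrobial peptide stored in secondary granules. Its log2 intensities were 6.63, 7.99 and 7.56 on day 2, 4.85, 4.96 and 4.19 on day 7, and 6.32, 6.45 and 6.66 on day 21. All 3 arrays of day 21 lay above all of day 7, as in 20.5% of all genes, and 2 of them, at 6.32 and 6.45, lay below the lowest array of day 2. The mean was 6.64-fold lower on day 7 than on day 2 (-2.73 ± 0.31). It then rose 3.51-fold from day 7 to day 21 (1.81 ± 0.31, limma adjusted p = 0.000752), the only call of the 8 genes in that interval, and the adjusted p of this rise ran from 8.89e-05 to 0.00434 over the alternatives tried. Camp was also the only gene of the 8 not called different between days 21 and 2 (-0.92 ± 0.31, adjusted p = 0.0580). That difference did pass, as lower on day 21, without replicate 1 of day 2 (-1.30, adjusted p = 0.00619), without replicate 3 of day 7 (adjusted p = 0.0405), with centred arrays (adjusted p = 0.0477), with dim probe sets left out (adjusted p = 0.0492) and with the trended, robust variance (adjusted p = 0.0467).

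Lcn2 encodes lipocalin 2, a secondary granule protein that binds bacterial siderophores and so withholds iron, and which epithelial cells and macrophages also make. Its log2 intensities were 6.15, 7.46 and 6.98 on day 2, 4.50, 4.66 and 4.05 on day 7, and 4.77, 5.80 and 4.56 on day 21. Replicates 1 and 2 of day 21 lay above all day 7 arrays, replicate 2 the furthest, and replicate 3 lay within the day 7 values. Lcn2 was 5.50-fold lower on day 7 than on day 2 (-2.46 ± 0.36), did not pass between days 7 and 21 (0.64 ± 0.36, adjusted p = 0.216), and was 3.53-fold lower on day 21 than on day 2 (-1.82 ± 0.36, adjusted p = 0.00453). Camp and Lcn2 are stored in the same granules. Camp minus Lcn2 was 0.48 to 0.58 on day 2, 0.13 to 0.35 on day 7 and 0.64 to 2.10 on day 21, a shift of 1.17 from day 7 to day 21 with no overlap, which did not pass (exact permutation p = 0.1, the smallest possible; adjusted p = 0.12) and rests in part on Lcn2 values about the low end.

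RatNP-3b is an alpha-defensin, a small cationic peptide of primary granules. Its log2 intensities were 4.86, 6.82 and 5.34 on day 2, 2.81, 3.22 and 3.51 on day 7, and 2.77, 3.92 and 3.70 on day 21. All day 2 arrays lay above the low end of 4.25 and all arrays of days 7 and 21 below it, so changes between those later days carry little information and the size of a difference to day 2 depends on how dim values were summarised. The measured mean was lower on day 7 than on day 2 (-2.49 ± 0.44), the difference between days 7 and 21 was 0.29 ± 0.44 (adjusted p = 0.682), and the mean was lower on day 21 than on day 2 (-2.21 ± 0.44, adjusted p = 0.00470). With 16 added to intensities before log2, which damps dim probe sets, the differences to day 2 shrank to -1.45 and -1.33. Of the 4 other alpha-defensins measured, 0 were called in any of the 3 comparisons, and at an unadjusted limma p under 0.05 there were 1 lower on day 7 than on day 2, 1 higher on day 21 than on day 7, and 1 higher and 1 lower on day 21 than on day 2. Without replicate 1 of day 21, 1 was called higher on day 21 than on each other day, and without replicate 3 of day 2, 1 was called lower on day 21 than on day 2. Np4 had 5.12, 6.42 and 4.99 on day 2, 4.31 to 4.82 on day 7 and 4.55 to 4.81 on day 21. In Defa5, Defa7 and Defa24 the arrays of days 2 and 7 overlapped, with log2 differences of -0.57, -0.05 and -0.005. Alpha-defensin genes are near copies of each other, so which of them a probe set reads is uncertain.

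Stfa2l2 and Stfa3 encode stefin A proteins, inhibitors of cysteine cathepsins. Stfa2l2 had the largest drop of the 8 genes, with log2 intensities of 8.39, 10.02 and 9.01 on day 2, 4.70, 4.82 and 3.01 on day 7, and 4.53, 6.45 and 5.71 on day 21. Replicate 3 of day 7 stood below the low end and well under the other arrays of its day, and replicate 1 of day 21 lay within the day 7 values. Stfa3 had 7.91, 9.67 and 8.22 on day 2, 4.96, 5.01 and 3.38 on day 7, and 3.54, 4.71 and 4.35 on day 21. Its day 7 and day 21 arrays overlapped fully and straddled the low end.

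On day 7 the mean of Stfa2l2 was 31.2-fold lower than on day 2 (-4.97 ± 0.56) and that of Stfa3 17.7-fold lower (-4.15 ± 0.51). From day 7 to day 21 the values were 1.39 ± 0.56 for Stfa2l2 (limma adjusted p = 0.0868) and -0.25 ± 0.51 for Stfa3 (adjusted p = 0.767). Stfa2l2 passed as higher with a further quantile normalization (1.57, adjusted p = 0.0417), with centred arrays (adjusted p = 0.0184), with the replicate block (adjusted p = 0.0311) and without replicate 1 of day 21 (1.91, adjusted p = 0.0266). On day 21 both remained below day 2, Stfa2l2 11.9-fold (-3.58 ± 0.56, adjusted p = 0.00119) and Stfa3 21.1-fold (-4.40 ± 0.51, adjusted p = 0.000143). Within arrays Stfa2l2 minus Stfa3 was 0.35 to 0.79 on day 2, -0.37 to -0.19 on day 7 and 0.98 to 1.74 on day 21. The shift from day 7 to day 21 did not pass (exact permutation p = 0.1, the smallest possible; adjusted p = 0.12), and its size is not given because Stfa3 straddles the low end on both days.

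The stefin values come with a limit of the array. A second Stfa3 probe set gave 3.28, 4.03 and 3.52 on day 2, 3.57 to 3.73 on day 7 and 3.73 to 4.39 on day 21, with 1 of 9 arrays above the low end, and was called in none of the comparisons. Since the day 7 and day 21 values of Stfa3, and 1 day 7 array of Stfa2l2, lie about or below the low end, the sizes of these folds depend on dim values. Averaging both Stfa3 probe sets reduced its difference to -2.04 between days 7 and 2 and to -1.97 between days 21 and 2. The brighter Stfa3 probe set is of a type whose probes can match several transcripts, so signal shared among the stefin copies is possible and the assignment to Stfa3 is uncertain.

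**Figure D2:**
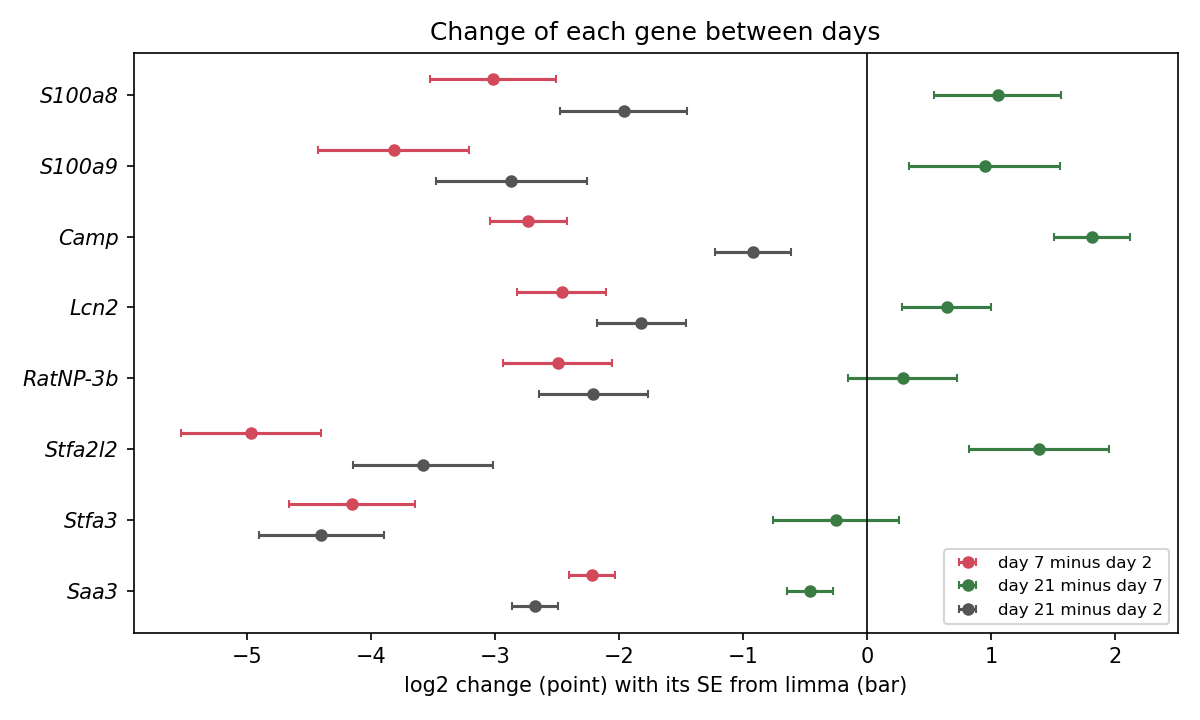
Log2 change of each gene (horizontal axis, point) with its SE from limma (bar) for day 7 minus day 2, day 21 minus day 7 and day 21 minus day 2. All values of the first comparison lie left of 0, between -4.97 and -2.21. For day 21 minus day 7 they run from -0.46 for Saa3 to 1.81 for Camp.

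Saa3 was also lowest on day 21 by its mean, and its arrays of a day lay close together. Its log2 intensities were 8.61, 8.79 and 9.05 on day 2, 6.36, 6.70 and 6.75 on day 7, and 6.04, 5.97 and 6.42 on day 21. The SD within a day was 0.21 to 0.24. Saa3 was 4.64-fold lower on day 7 than on day 2 (-2.21 ± 0.18) and 6.39-fold lower on day 21 than on day 2 (-2.67 ± 0.18, adjusted p = 4.47e-06), the smallest adjusted p of the 8 genes in that comparison. Between days 7 and 21 the difference was -0.46 ± 0.18 (adjusted p = 0.0826), and it passed as lower without replicate 3 of day 21 (-0.60, adjusted p = 0.0406) and with the replicate block (adjusted p = 0.0475).

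The 7 genes other than Saa3 varied widely between litters of the same day, and mostly in the same arrays. Replicate 2 of day 2 was the highest array of its day in all 7, against 24.8% of all genes, and replicate 1 of day 2 was the lowest in all 8, against 27.0%. On day 7, replicate 3 was the lowest array in 6 of 8, against 44.8% of all genes, and replicate 2 the highest in 6 of 8, against 29.6%. On day 21, replicate 2 was the highest in 6 of 8, against 42.1%, and replicate 1 the lowest in 6 of 8, against 40.1%. The SD of S100a9 was 0.84 on day 2, 0.75 on day 7 and 1.36 on day 21, where the median SD of all genes was 0.19, 0.19 and 0.20. That of Camp was 0.69 on day 2 but 0.17 on day 21, so its day 21 arrays were together when those of S100a8, S100a9 and Stfa2l2 were apart. These counts treat genes that vary together as separate and were not tested.

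**Figure D3:**
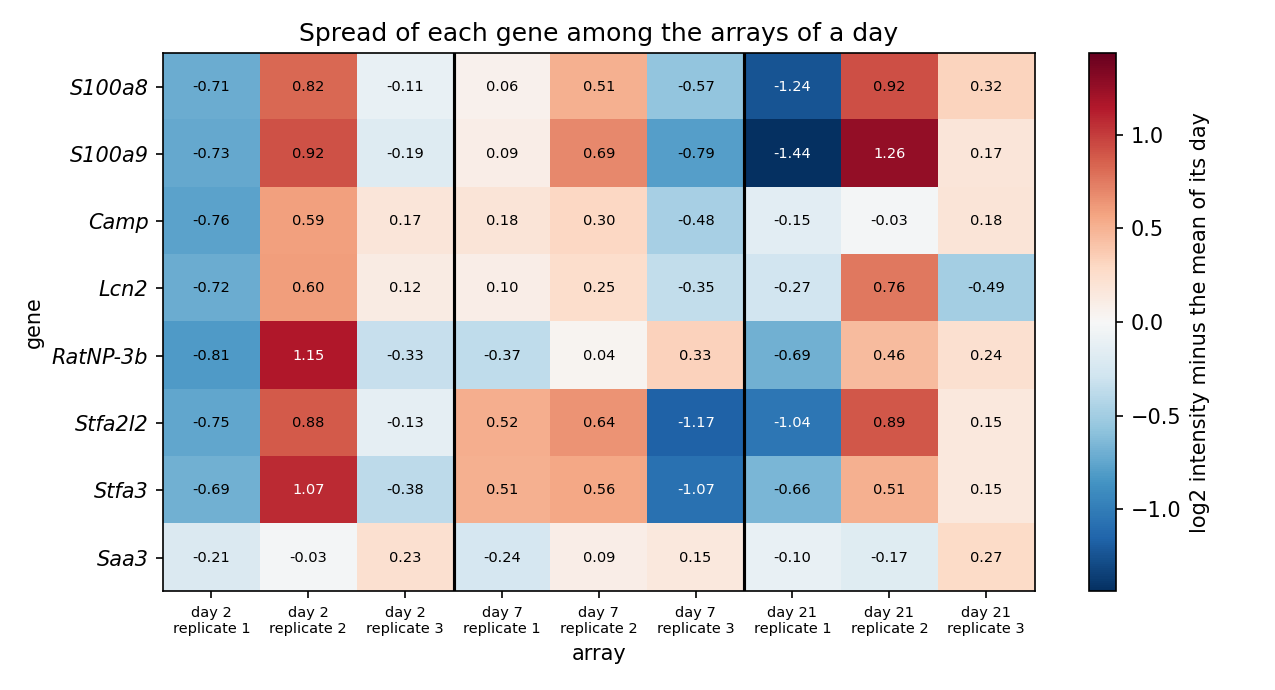
Log2 intensity minus the mean of its day (colour and printed value) for the 8 genes (rows) on the 9 arrays (columns). Replicate 2 of day 2 is positive in all genes but Saa3, at -0.03, and replicate 1 of day 21 is negative in all 8, down to -1.44 for S100a9.

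Among other genes of neutrophils, their chemoattractants, inducing cytokines and the acute phase, the share called higher on day 21 than on day 7 differed from list to list. Of all genes, 13.7% were called higher in that interval and 24.4% lower. The lists were chosen with earlier results of these data known, and macrophages express many of their genes. Where 0 genes of a list are given below as fallen between days 7 and 21 in limma's test, the count at an unadjusted p under 0.05 was also 0. Among secondary and gelatinase granule genes, 7 of 9 measured rose from day 7 to day 21, 0 fell and 2 did not pass, with a median of 1.69. They were led by Adam8, a membrane metalloprotease (3.51 ± 0.18), and included Slpi, a protease inhibitor (2.26 ± 0.34), Fcnb, a bacterial pattern receptor (2.04 ± 0.39), and Cybb, the catalytic subunit of the phagocyte oxidase (2.14 ± 0.26). Slpi, Fcnb and Cybb had been called lower on day 7 than on day 2, with log2 differences of -2.50, -2.38 and -1.78, and their values for day 21 minus day 2 were -0.23, -0.34 and 0.36, none of which passed. Between days 21 and 2, Adam8 (2.91 ± 0.18) and the collagenase Mmp8 (0.68 ± 0.21) were called higher, and the peptidoglycan binder Pglyrp1 was called lower, with means of 4.41 and 5.41. The Mmp8 call was lost when any 1 array of day 2 or day 21 was left out, and the Pglyrp1 call without replicate 2 or 3 of day 2 or without replicate 1 or 3 of day 21. Of 5 primary granule genes measured, 2 rose from day 7 to day 21, the proteoglycan Srgn (2.16 ± 0.31) and the protease inhibitor Serpinb1a (1.80 ± 0.27), and the lysosomal enzyme Gusb fell (-1.12 ± 0.18), with a median of 0.17.

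Of 16 neutrophil surface and signalling genes measured, 14 rose from day 7 to day 21 (13.7% of all genes rose), 0 fell and 2 did not pass. Examples are the integrin chain Itgam (2.38 ± 0.47), the decoy interleukin 1 receptor Il1r2 (2.53 ± 0.16) and the chemokine receptor Cxcr1 (2.57 ± 0.40). Itgam had been called lower on day 7 than on day 2 (-2.55) and did not pass between days 21 and 2 (-0.17). Il1r2 had also been called lower on day 7 (-1.10), but was called above day 2 on day 21 (1.43), as was Cxcr1 (1.93). Neutrophil chemoattractants rose in 7 of 8, led by Cxcl3 (3.12 ± 0.27) and Ccl9 (2.99 ± 0.25). Of the 8, 5 had been called lower on day 7 than on day 2 (3 to 5 over the alternatives). So had 6 of 9 secondary and gelatinase granule genes (3 to 7), 5 of 16 surface and signalling genes (4 to 8) and 1 of 5 primary granule genes (1 to 2). Of all genes, 4.41% were called lower there. The lists were chosen with earlier results known, so these counts are only descriptions. Cxcl3 and Ccl9 were among the 5 chemoattractants (-2.72 and -3.01), and did not pass between days 21 and 2 (0.40 and -0.02). Cxcl2 and Cxcl6 were called above day 2 on day 21 (1.09 and 1.74). Cytokines that induce Lcn2, Saa3 and the S100 pair, with their signalling genes, rose in 9 of 13, among them Il6 (3.62 ± 0.20) and Il1b (1.53 ± 0.27), and 0 fell. Il6 and Il1b had been called lower on day 7 than on day 2 (-1.33 and -1.15), and Il1b did not pass between days 21 and 2 (0.38). Il6, which drives acute phase genes, was also called above day 2 on day 21 (2.28), when Saa3 was at its lowest mean. A link between these genes was not tested. In acute phase genes, 7 of 14 rose from day 7 to day 21 and 1, the ferroxidase Cp, fell (-1.89). Il1rn rose most (3.42 ± 0.43), after a called fall from day 2 to day 7 (-3.82 ± 0.43), and did not pass between days 21 and 2 (-0.40). C3, the central complement component, rose by 2.85 ± 0.26 and Lbp, which carries endotoxin to Cd14, by 2.11 ± 0.26, and both were above day 2 (1.88 and 1.63).

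Other S100 genes moved in both directions from day 7 to day 21, whereas the other stefins and cystatins measured rose. Of 12 other S100 genes, 5 fell and 3 rose from day 7 to day 21 (5 rose with a further quantile normalization), with S100a3 (-1.69 ± 0.14) and S100a1 (-1.30 ± 0.21) falling most; 24.4% of all genes fell. All 4 of the other stefins and cystatins measured rose in that interval, beside 13.7% of all genes. The leukocyte cystatin Cst7 rose by 4.75 ± 0.28 after values of 6.70 to 7.46 on day 2 and 4.38 to 5.38 on day 7. On day 21 Cst7 (2.41), Cst3 (1.91), Cstb (0.61) and Cst6 (0.47) were called above day 2, with 2 to 4 such calls over the alternatives. Of the 7 cathepsins that stefins can bind, Ctsz (2.35 ± 0.26), Ctss (1.58 ± 0.23) and Ctsb (1.02 ± 0.15) rose and Ctsh fell (-0.63 ± 0.15; not called with centred arrays). Among 10 receptors of the encoded proteins, 4 rose and 2 fell, with Tlr2 rising (2.05 ± 0.21) and Tlr4, which binds the S100 pair, falling (-0.77), as did Slc22a17, a receptor of lipocalin 2 (-0.81).

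The transcription factors of granulocyte development gave smaller values. Of 7 measured, 3 rose from day 7 to day 21, beside 13.7% of all genes. Cebpa rose by 1.15 ± 0.27, Cebpe by 0.61 ± 0.16 and Cebpb by 0.53 ± 0.15. Between days 7 and 2, 0 were called (1 at an unadjusted limma p under 0.05). The Cebpb rise was not called without replicate 2 of day 7 or replicate 1 of day 21. Cebpe, which is needed for secondary granules, lay between 3.39 and 4.39 on the 9 arrays, about the low end. It was also the 1 of 4 genes of granulocyte precursors called higher in that interval; with dim probe sets left out 0 were called, with centred arrays 2 and with a further quantile normalization 3.

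**Figure D4:**
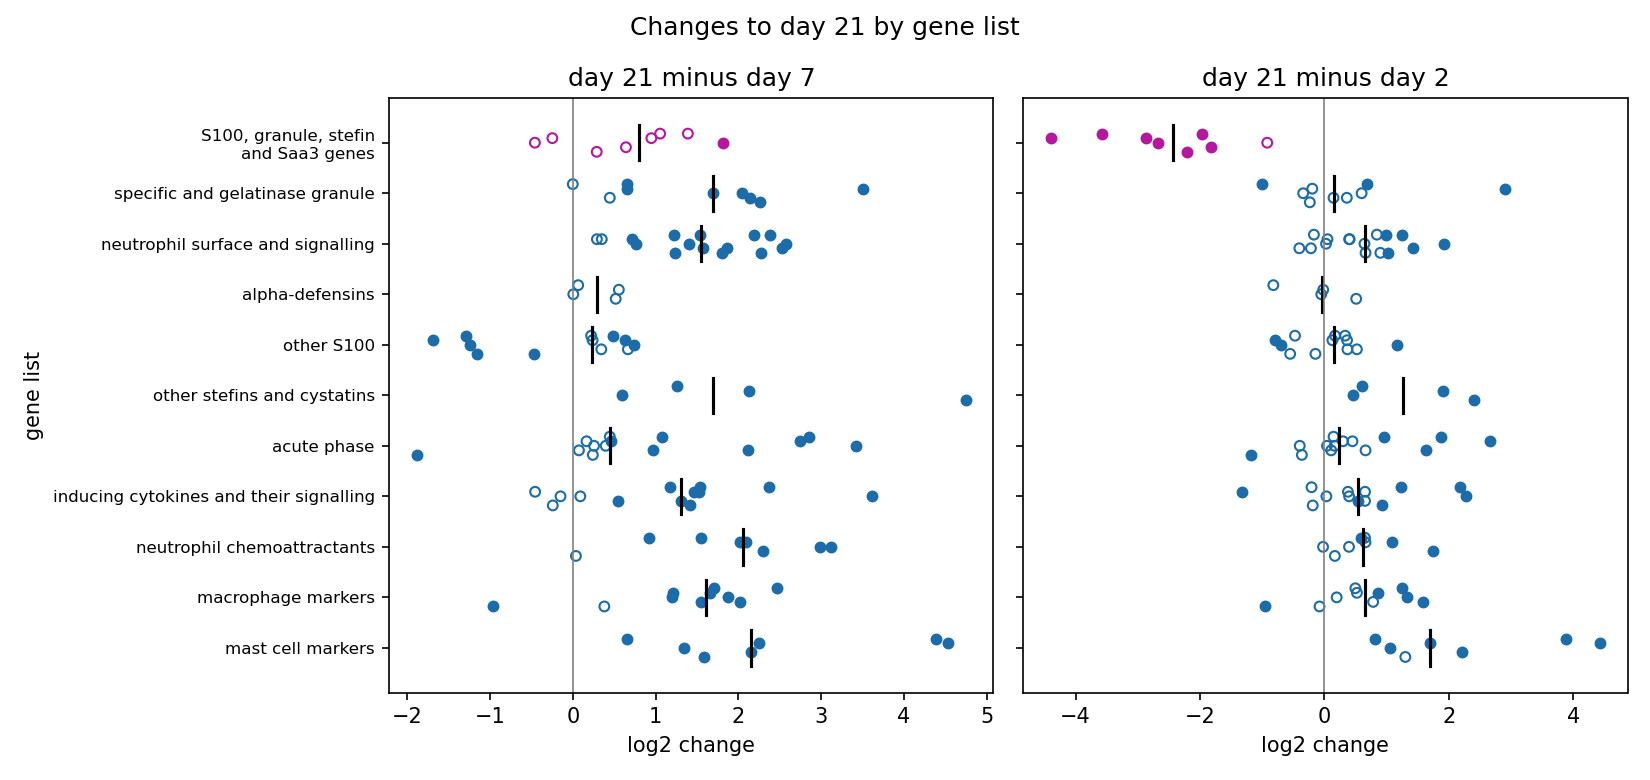
Log2 change of each measured gene (point, horizontal axis) in the S100, granule, stefin and Saa3 set and in 10 other lists (vertical axis), for day 21 minus day 7 and day 21 minus day 2. Filled points are called at an adjusted p under 0.05 and bars are list medians. In the left panel 1 of the 8 set genes is filled, against 14 of 16 surface and signalling genes, and in the right panel 7 of the 8 are filled and lie between -4.40 and -1.82.

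The markers of the cells were set beside these results. Of 12 neutrophil markers 6 had a probe set, 3 of which are genes of the set. Of the other three, Cxcr2, the main chemokine receptor of neutrophils, was below the low end on every array (3.30 to 4.14), Csf3r, the G-CSF receptor, lay at 3.92 to 5.77, and the collagenase Mmp8 at 5.34 to 6.55. Between days 7 and 2 neither Csf3r (-0.38), Cxcr2 (-0.24) nor Mmp8 (0.02) was called. From day 7 to day 21 Csf3r rose by 1.22 ± 0.27 (limma adjusted p = 0.00469) and Mmp8 by 0.66 ± 0.21 (adjusted p = 0.0290), the latter not called without replicate 3 of day 7 or replicate 2 or 3 of day 21. Fibroblast markers had a mean over 10 genes of 10.1 to 10.5 on day 2, 10.4 on day 7 and 9.56 to 10.1 on day 21, from Col3a1 at 12.9 to 13.3 down to Thy1 at 4.34 to 5.55. From day 7 to day 21, 4 of them fell, Tcf21 (-2.44), Fn1 (-1.81), Fbln1 (-1.67) and Pdgfra (-1.40), and Dcn rose (1.29). Of all genes, 24.4% were called lower in that interval and 13.7% higher, which also bears on the marker counts below. Macrophage markers, 10 of 13 measured, had a mean of 7.84 to 7.99 on day 2, 6.87 to 7.50 on day 7 and 8.37 to 8.65 on day 21. From day 7 to day 21, 8 of the 10 rose and 1, Mertk, fell (-0.97 ± 0.20). Replicate 3 of day 7, in which 6 of the 8 genes were lowest, also had the lowest macrophage mean. Replicate 1 of day 21, low in S100a8, S100a9 and Stfa2l2, did not (8.49, between the other two). The mean of 7 mast cell markers was 4.25 to 4.66 on day 2, 4.00 to 4.42 on day 7, and 5.86, 7.57 and 6.43 in replicates 1 to 3 of day 21, the order that S100a8, S100a9, RatNP-3b, Stfa2l2 and Stfa3 also had on that day. This order is not particular to mast cell markers, since the mean of 4 platelet markers had it too (6.15, 6.47 and 6.35). Of all genes, 42.1% were highest in replicate 2 of day 21 and 40.1% lowest in replicate 1. Markers of epithelium, which can also make Lcn2 and Saa3, had a mean over 10 genes of 6.67 to 7.06 on day 2, 5.86 to 6.63 on day 7 and 6.73 to 7.55 on day 21, and 4 rose and 1 fell from day 7 to day 21 (2 rose without replicate 1 or 3 of day 7 or replicate 2 of day 21, and 2 fell without replicate 3 of day 7). Replicate 3 of day 7 had their lowest mean and replicate 2 of days 2 and 21 the highest of those days. The airway secretory gene Scgb1a1 had means of 10.01, 7.65 and 10.81 on days 2, 7 and 21, and the mesothelial gene Msln 7.24, 5.45 and 7.98. Sftpc, the epithelial marker that fell, went the other way, with 8.91, 9.37 and 8.18, and Sftpb had 7.15, 7.23 and 6.63. The other mesothelial marker, Wt1, had 5.23, 4.57 and 4.78 and was called in no comparison. Of 5 endothelial markers 4 fell from day 7 to day 21. RNA quality was judged by the 3′ minus 5′ log2 signal of control probe sets. That of beta-actin was 0.51 to 0.80 on day 2, 0.71 to 1.18 on day 7 and 0.49 to 0.73 on day 21, and that of GAPDH -0.07 to 0.16, -0.11 to 0.25 and 0.11 to 0.24. Replicate 3 of day 7, in which 6 of the 8 genes were lowest, had the highest value of the 9 arrays in both. The part of these cell types and of RNA quality in the results was not tested.

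Outside the set, the genes whose 9 values followed its mean most closely were Ctsl (Pearson r 0.970), Cyp1a1 (0.958), Nxt1 (0.956), Polr1e (0.954) and Anxa3 (0.951). These are descriptions over arrays that share their days. Ctsl, a cathepsin, had means of 11.82 on day 2, 11.50 on day 7 and 11.58 on day 21, with no call. Cyp1a1, a target of the aryl hydrocarbon receptor, was 5.82, 4.48 and 4.64 and was called lower on day 21 than on day 2 (-1.18 ± 0.15). Camp stood nearest to the cytokine Il1a (r 0.967), whose means were 10.63, 9.25 and 10.42, Stfa2l2 nearest to Anxa3, an annexin of neutrophil granules (r 0.972; averaging the Anxa3 probe sets turned its difference between days 21 and 2 from -0.65 to 0.053), and Saa3 nearest to the imprinted RNA H19 (r 0.971), with means of 10.79, 8.72 and 8.07.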

How the data were processed

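The authors deposited probe set intensity values of 9 Affymetrix arrays, for which the submitters' processing notes name RMA and the affy package without versions. The values were on a linear scale, so log2 was taken. RMA compresses changes of dim probe sets. Of 31099 probe sets, 57 controls were left out and 31042 tested; 20826 had 1 gene symbol, 436 several and 9780 none here. Array medians were log2 5.24 to 5.66, and arrays correlated at 0.976 to 0.988 within and 0.880 to 0.974 between days. The number of arrays, 3 a day, limits the precision.

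limma 3.58.1 (R 4.3.3) fitted a mean per day over all 9 arrays, two-sided, with Benjamini-Hochberg adjustment over all probe sets in a comparison and calls at an adjusted p under 0.05. Errors are limma's SE unless called SD. The procedure was tested on simulated data. Deviations of same-numbered litters of different days correlated at -0.24 to 0.41 over 9 pairs, and of different numbers at -0.28 to 0.24 over 18. The 3 same-numbered pairs of days 2 and 7 lay at 0.077 to 0.41. The labels do not say whether a number is the same litter on every day, and not every pair passed 0.1, so the number is a block only in an alternative.

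The 9 genes, their lists and the pairs compared were chosen with earlier results of these data known. From each list, up to 4 called genes with the largest change could be named, with markers as levels and the genes nearest by Pearson r. Pglyrp1, Cp, Tlr4, Mmp8, Mertk, Np4, Defa5, Defa7 and Defa24 were named after their values were seen. Alternatives covered scaling, an offset, dim probe sets, variance model, a replicate block, arrays fitted, averaged probe sets and leaving out each array. Promoter matches and alignments used Biopython 1.88.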

Additional observations from a re-analysis of the deposited data

How the results depend on the processing

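The count called lower on day 7 than on day 2 is fixed by how the genes were chosen, so its stability says nothing. The count called higher on day 21 than on day 7 was 1 and moved to 2 with a further quantile normalization (Camp and Stfa2l2), to 3 with arrays centred on their medians and to 3 with a replicate block (S100a8, Camp and Stfa2l2 in both), and ran from 1 to 4 when 1 array was left out, with S100a9 added without replicate 1 of day 21. The count called lower in that interval was 0 in limma's test (1 at an unadjusted p under 0.05; 0 under every scaling tried) and 1 with the replicate block (Saa3, adjusted p = 0.0475), and 0 to 1 with 1 array left out. With the block, the adjusted p of S100a8 was 0.0364 and that of Stfa2l2 0.0311; whether a number marks the same litter on every day is not stated, so no pairing is assumed. The count called lower on day 21 than on day 2 ran from 6 to 8 with 1 array left out. The block changed no other call of the 8 genes. Of 405 alternative values of their changes, 383 kept their direction and side of the threshold, 15 newly passed it, 3 no longer passed and 4, all of Stfa3 between days 7 and 21, changed sign with no call. The 405 include the comparison of days 7 and 2, which chose the genes. No call or direction of that comparison changed, so the share of 383 overstates the stability of the other comparisons. Centring moved the median of all genes from -0.015 to 0.096 between days 21 and 7. Averaging the probe sets of Anxa3 turned its difference between days 21 and 2 from -0.65 to 0.053. Causes were not tested. Days 7 and 21 of RatNP-3b, Stfa3 and Lcn2 lie about the low end, where small differences cannot be resolved.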
